A study of Mus musculus with 28 samples.

Results

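The genes described are 35 NRF2-linked genes of oxidative stress defence, iron storage and glutathione metabolism, chosen by name from the pathway. They were chosen with earlier results of these data known. All 35 were found among the 35429 genes of the bulk RNA tables, and all 35 passed the filter on low counts in both tables. NRF2, encoded by Nfe2l2, is a transcription factor that KEAP1 normally holds for degradation. Oxidants and electrophiles block KEAP1, and NRF2 then binds antioxidant response elements together with small MAF proteins and raises genes that make glutathione, recycle thioredoxin, supply NADPH, break down haem and store iron. In blood cells the same genes are also set by lineage: red cell precursors, mast cells, granulocytes and macrophages differ in how much haem, iron and peroxide they handle.

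The data come from mouse C57Bl/6 bone marrow, as 18 bulk RNA libraries, 4 single-cell RNA samples and 2 chromatin samples among 28 samples in all. In the first bulk set, all groups were c-Kit+ stem and progenitor cells: MOZ-TIF2 cells carried a retroviral Ty1-tagged MOZ-TIF2 fusion oncogene of acute myeloid leukaemia, were sorted on GFP and were grown for 4 days in cytokine medium (n = 2), differentiated cells carried the empty vector and were treated alike (n = 2), and fresh cells were used as isolated, with no virus and no culture (n = 2). In the second bulk set, marrow c-Kit+ cells were transformed by retroviral EYA1 with HOXA9, sorted on GFP and dTomato, or by HOXA9 alone, sorted on GFP, and were carried through 4 rounds of replating. Each line was kept for 72 h in 5 µM benzarone, a small molecule that blocks the phosphatase activity of EYA proteins, or in its solvent DMSO, with 3 libraries for every one of these 4 groups. The single cells were Ty1.MOZ-TIF2 cells in 5 µM benzarone on days 1, 3 and 5 or in DMSO on days 1 and 5. Days 1 and 3 had 1 sample per condition, and on day 5 the cells of both treatments were 1 sample told apart by the deposited cell table. The labels do not say whether replicate libraries came from separate animals, transductions or cultures, so every p-value below measures only the spread between these libraries, which may be technical.

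Library totals were 12397486 to 34463851 counts in the first set, lowest in the fresh cells, and 26340517 to 34606046 in the lines. The groups of the first set also differed in cell identity. Mast cell and basophil markers summed to 13.0 to 17.3 CPM (counts scaled to library size) in MOZ-TIF2 cells, 56700 to 86600 in differentiated cells and 252 to 254 in fresh cells. Erythroid markers summed to 4.75 to 5.57 CPM in MOZ-TIF2 cells, where 7 of 14 were at 0, to 219 to 248 in differentiated cells and to 6440 to 9460 in fresh cells. In the same order, immediate early genes summed to 162 to 492, 659 to 1670 and 2540 to 4350 CPM, secondary granule markers to 1090 to 5790, 103 to 165 and 21600 to 23600 CPM, and primary granule markers to 9620 to 16000, 30.6 to 247 and 6840 to 9400 CPM. Macrophage markers summed to 301 to 1700 CPM in MOZ-TIF2 cells, where C1qa, C1qb and C1qc were at 0, to 1560 to 2920 in differentiated cells and to 2780 to 3390 in fresh cells. Stem and progenitor markers summed to 720 to 1030, 7370 to 7480 and 688 to 786 CPM in that order, and B lymphoid markers to 5.25 to 5.52, 0.43 to 1.18 and 644 to 714 CPM. Eya1 was higher in EYA1+HOXA9 than in HOXA9 cells under both treatments (edgeR adjusted p = 3.08e-09 in benzarone and 2.43e-09 in DMSO), as the labels have it.

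Some promoters of these genes carry the letters that NRF2 and its partners read, and they are shown first. Whether a match goes with a change in RNA was not tested. RefSeq promoters on GRCm38.p6, from 250 bases before to 50 bases after the start, were at hand for 30 of the 35 genes, and Abcc1, Gclc, Gsr, Hmox1 and Prdx6 are named only. The core of the antioxidant response element, TGACNNNGC on either strand, was found in 11 of these 30 genes (36.7%), against 14.0% of the 27025 genes of the promoter table. They were Nfe2l2 itself, Blvra, Mgst1, Gclm, Srxn1, Txnrd1, G6pdx, Pgd, Me1, Prdx1 and Sod1. The NF-E2-like form TGANTCAGC, which overlaps the recognition letters of AP-1 and of MAF partners, was found in 4 of the 30 genes (13.3%), against 1.37% of all genes of the table. Those 4 windows are printed 5′ to 3′ in the direction of the gene with the TGANTCAGC match in capitals, so that the match can be seen in its promoter.
Srxn1 (chr2:152105439-152105527, plus strand): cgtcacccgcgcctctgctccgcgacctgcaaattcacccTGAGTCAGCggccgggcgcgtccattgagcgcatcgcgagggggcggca
Me1 (chr9:86695885-86695960, minus strand): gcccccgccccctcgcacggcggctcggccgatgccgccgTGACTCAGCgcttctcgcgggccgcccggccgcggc
Prdx1 (chr4:116685426-116685514, plus strand): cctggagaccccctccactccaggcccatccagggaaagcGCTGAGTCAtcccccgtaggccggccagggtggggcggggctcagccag
Gstp1 (chr19:4037938-4038026, minus strand): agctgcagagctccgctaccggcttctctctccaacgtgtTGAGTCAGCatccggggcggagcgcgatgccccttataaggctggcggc
The first base of the match lay at position -45 in Srxn1, -6 in Me1, -133 in Prdx1 and -74 in Gstp1, counted from the start. In Me1 and Prdx1 the same letters also spell TGACNNNGC, and in Prdx1 the match reads on the opposite strand. A match is a description of the sequence and not a measured binding site.

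The Ty1 tag of MOZ-TIF2 was mapped in 2 chromatin immunoprecipitation samples, and 3303 peaks of replicate 1 overlapped one of replicate 2 by at least 1 base. Of the 35 genes, 13 (37.1%) had a peak found in both replicates no more than 5 kb from the gene, against 26.2% of the 14517 tested genes with coordinates. They were Nfe2l2, Keap1, Fth1, Ftl1, Gclm, Gsr, Txnrd1, Pgd, Tkt, Prdx6, Gpx1, Gpx4 and Sod1, and in all 13 the peak overlapped the gene. The widest lay over the start of Gclm, which encodes the regulatory subunit of glutamate-cysteine ligase (chr3:122245551-122247501, 1950 bases), and in Nfe2l2, 112 bases from its nearest start (chr2:75702601-75704551, 1950 bases, GRCm38). The peaks in Gsr and Prdx6 spanned 1900 and 1700 bases. The lists give intervals without scores, so the strength of a peak cannot be stated. The label of replicate 2 gives the antibody number of the acetyl-histone samples, and which antibody was used there is uncertain.

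The first comparison set MOZ-TIF2 cells against fresh marrow cells and against cells that had differentiated in the same medium. MOZ-TIF2 cells held more RNA of the cystine importer, sulfiredoxin and malic enzyme genes than fresh cells, and less of haem oxygenase, biliverdin reductase B and ferritin heavy chain. Of the 35 genes 9 were higher and 5 lower than in fresh cells, where 23.7% of all tested genes passed the test, 11.3% higher and 12.4% lower (edgeR quasi-likelihood test, Benjamini-Hochberg adjusted p under 0.05 over 15224 genes). Against differentiated cells 10 were higher and 6 lower (45.7%), where 29.5% of all genes passed, 13.3% higher and 16.2% lower. Between differentiated and fresh cells 10 were higher and 10 lower (57.1%), where 40.7% of all genes passed, 21.0% higher and 19.7% lower. The median log2 difference of the 35 genes was 0.37, -0.42 and -0.22 in these comparisons, against 0, 0.025 and -0.027 over all tested genes. The comparisons share libraries. In bulk RNA, fewer cells of a type and less RNA per cell cannot be told apart. CPM values carry no length correction and are set side by side only within a gene.

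**Figure D1:**
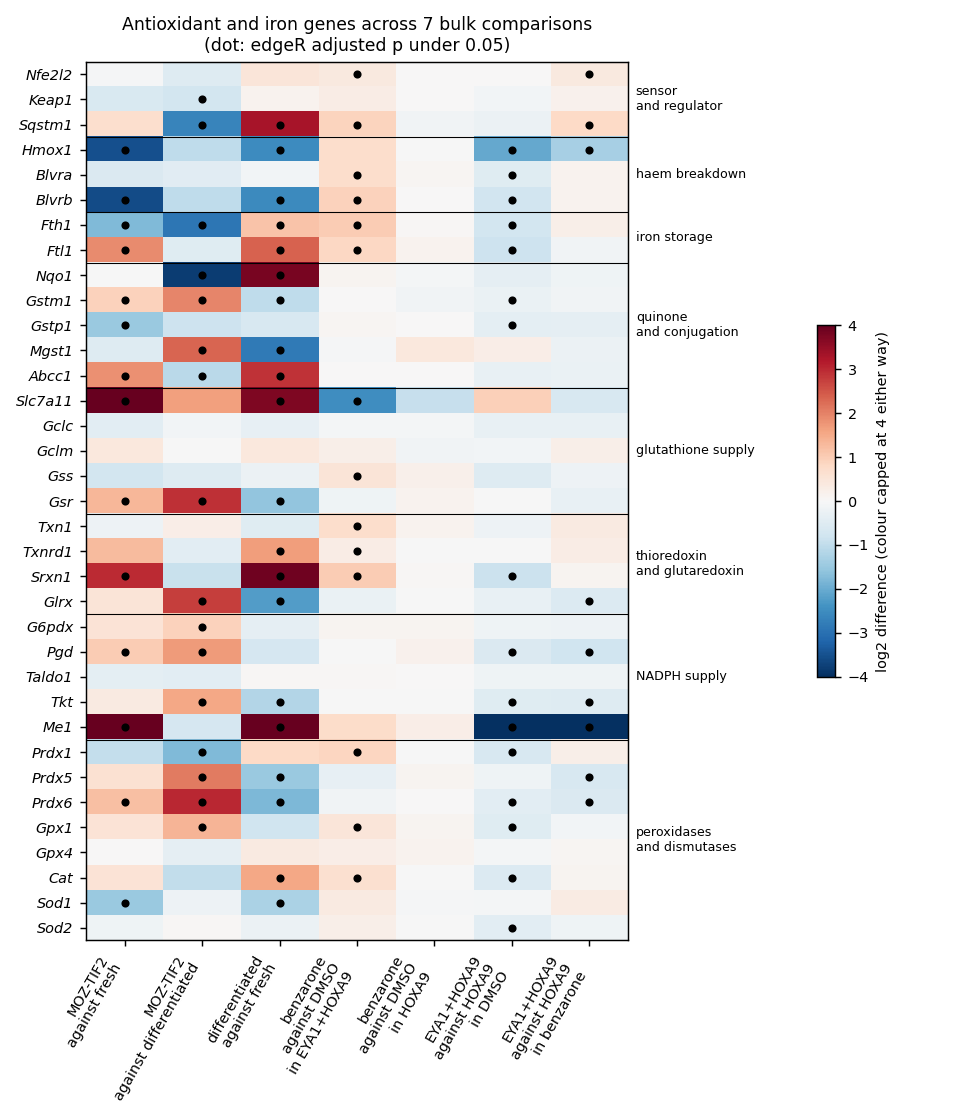
Log2 difference of each of the 35 genes (rows, grouped by role) in 7 bulk comparisons (columns), from blue (lower in the first-named group) to red (higher), with colour capped at 4 either way and a dot where the edgeR adjusted p was under 0.05. The column of benzarone in HOXA9 cells has 0 dots, while that of benzarone in EYA1+HOXA9 cells has 13 dots on higher genes and 1 on a lower gene, Slc7a11.

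Nfe2l2 and Keap1 encode the sensor pair. Nfe2l2 stood at 129 and 121 CPM in MOZ-TIF2 cells, 182 and 175 CPM in differentiated cells, and 117 and 141 CPM in fresh cells. The MOZ-TIF2 libraries lay within the range of the fresh ones (log2 difference -0.048 ± 0.20, adjusted p = 0.882) and below both differentiated libraries, a difference that did not pass the test (log2 difference -0.52 ± 0.20, adjusted p = 0.1). Keap1 stood at 60.1 and 52.7 CPM in MOZ-TIF2 cells, 95.7 and 91.0 CPM in differentiated cells, and 81.2 and 89.3 CPM in fresh cells. It was lowest in the MOZ-TIF2 libraries, and this passed the test against differentiated cells (log2 difference -0.73 ± 0.19, adjusted p = 0.0316) but not against fresh cells (log2 difference -0.60 ± 0.19, adjusted p = 0.065). The call against differentiated cells was kept in 2 of 9 alternatives: it was lost with the replicate block, with no filter on low counts, in a fit of the 2 groups only and without any 1 of the 4 libraries (adjusted p = 0.0516 to 0.1). Sqstm1 encodes p62, an autophagy receptor that binds KEAP1, and it set the differentiated cells apart. It stood at 171 and 226 CPM in MOZ-TIF2 cells, 1393 and 1068 CPM in differentiated cells, and 129.6 and 121 CPM in fresh cells. Differentiated cells exceeded fresh cells 9.84-fold (log2 difference 3.30 ± 0.29, adjusted p = 0.00118), and MOZ-TIF2 cells were lower than differentiated cells (log2 difference -2.63 ± 0.28, adjusted p = 0.00184).

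Hmox1 and Blvrb, of haem breakdown, were low in both cultured groups. Hmox1 encodes haem oxygenase 1, which opens the haem ring and frees its iron. It stood at 21.4 and 34.3 CPM in MOZ-TIF2 cells, 35.2 and 76.8 CPM in differentiated cells, and 399 and 235 CPM in fresh cells. The fresh libraries lay far above all 4 others, and Hmox1 fell 11.4-fold in MOZ-TIF2 cells (log2 difference -3.51 ± 0.51, adjusted p = 0.0086) and 5.66-fold in differentiated cells (log2 difference -2.50 ± 0.49, adjusted p = 0.0115). Blvrb encodes biliverdin reductase B, which is abundant in red cells, and it followed the same order. It stood at 24.0 and 21.96 CPM in MOZ-TIF2 cells, 59.8 and 33.2 CPM in differentiated cells, and 289.5 and 258 CPM in fresh cells. MOZ-TIF2 cells were lower than fresh cells (log2 difference -3.58 ± 0.34, adjusted p = 0.00237), as were differentiated cells (log2 difference -2.56 ± 0.32, adjusted p = 0.00319). Against differentiated cells, the MOZ-TIF2 values of Hmox1 (-1.01, adjusted p = 0.158) and Blvrb (-1.01, adjusted p = 0.0533) did not pass. Blvra, the other biliverdin reductase gene, passed in none of the 3 comparisons. Beside these falls stands the erythroid marker sum, above 6000 CPM in fresh cells and below 6 CPM in MOZ-TIF2 cells, and its part in them was not tested.

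The ferritin genes went apart from each other. Fth1 encodes the heavy chain that oxidises iron for storage, and it stood at 583 and 394 CPM in MOZ-TIF2 cells, 3407 and 3846 CPM in differentiated cells, and 1796 and 1498 CPM in fresh cells. The 3 groups did not overlap, with MOZ-TIF2 lowest, and Fth1 was 3.37-fold lower than in fresh cells (log2 difference -1.75 ± 0.32, adjusted p = 0.0146) and 7.42-fold lower than in differentiated cells (log2 difference -2.89 ± 0.33, adjusted p = 0.00231). Ftl1, the light chain that forms the core, stood at 6382 and 6494 CPM in MOZ-TIF2 cells, 11062 and 6918 CPM in differentiated cells, and 1990.2 and 1486 CPM in fresh cells. It rose in MOZ-TIF2 cells over fresh cells (log2 difference 1.89 ± 0.37, adjusted p = 0.0188), the opposite direction to the heavy chain, and did not differ past the threshold from differentiated cells (log2 difference -0.48 ± 0.36, adjusted p = 0.359). Both ferritin genes have processed copies in the mouse genome, and how reads were shared among such copies is not stated, so their values are less certain than those of single-copy genes, and the same holds for Txn1, Prdx6 and G6pdx.

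**Figure D2:**
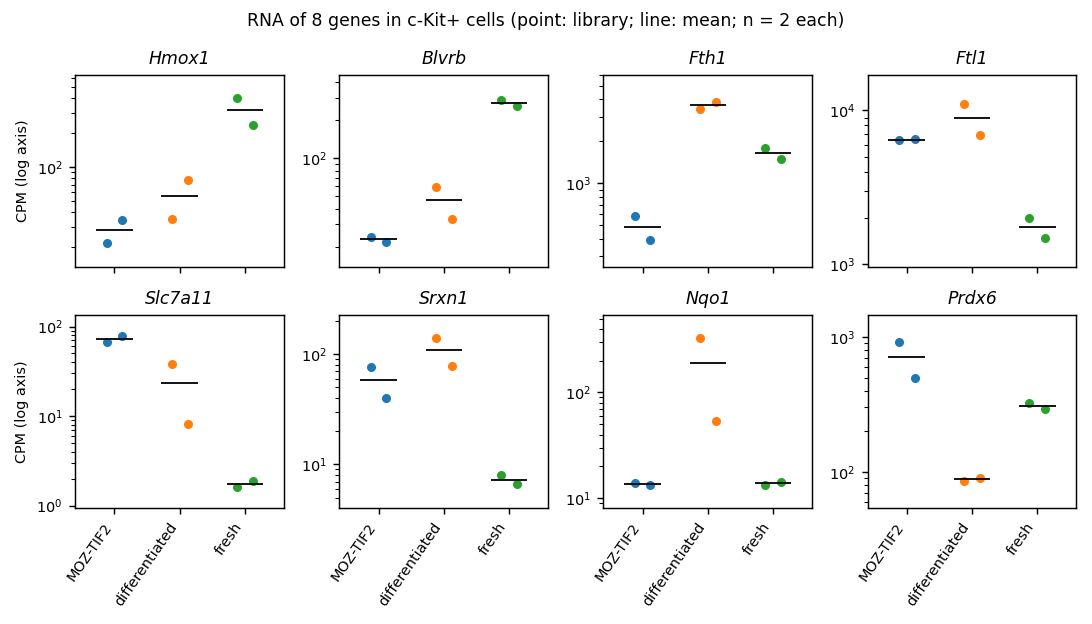
CPM (log axis) of 8 genes in MOZ-TIF2, differentiated and fresh c-Kit+ cells; each point is a library and each line a group mean (n = 2). Hmox1 and Blvrb are highest in the fresh cells, Slc7a11 and Srxn1 lowest there, and Fth1 and Ftl1 differ in where MOZ-TIF2 lies.

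Among the genes that conjugate and clear electrophiles, Nqo1, the quinone reductase gene that is often used as a readout of NRF2, stood at 14.1 and 13.5 CPM in MOZ-TIF2 cells, 329 and 53.3 CPM in differentiated cells, and 13.4 and 14.1 CPM in fresh cells. MOZ-TIF2 and fresh cells overlapped (adjusted p = 1), and the differentiated libraries were high but far apart from each other. MOZ-TIF2 cells were lower than differentiated cells (log2 difference -3.79 ± 0.81, adjusted p = 0.0184), and the value was -1.96 without differentiated replicate 1 and -4.58 without replicate 2. The call was lost without MOZ-TIF2 replicate 1 (adjusted p = 0.0707) or 2 (0.0643). Mgst1, a membrane-bound glutathione transferase and peroxidase gene, stood at 33.5 and 64.7 CPM in MOZ-TIF2 cells, 7.79 and 11.5 CPM in differentiated cells, and 72.4 and 66.6 CPM in fresh cells. It was lowest in differentiated cells, with MOZ-TIF2 cells above them (log2 difference 2.34 ± 0.38, adjusted p = 0.00769) and differentiated cells below fresh cells (log2 difference -2.84 ± 0.39, adjusted p = 0.00396). Abcc1, an exporter of glutathione conjugates, was higher in both cultured groups than in fresh cells (log2 1.83 in MOZ-TIF2 and 2.90 in differentiated cells). Gstm1 rose in MOZ-TIF2 over fresh cells (0.93) and over differentiated cells (1.94), and Gstp1 fell against fresh cells (-1.49). The glutathione transferase families hold near-identical genes, so these last values are uncertain.

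Glutathione supply differed step by step. Slc7a11 encodes the importer of cystine, the raw material of glutathione, and it stood at 66.9 and 79.1 CPM in MOZ-TIF2 cells, 38.5 and 8.23 CPM in differentiated cells, and 1.62 and 1.86 CPM in fresh cells. Both cultured groups lay above the fresh cells, by 41.7-fold in MOZ-TIF2 cells (log2 difference 5.38 ± 0.79, adjusted p = 0.00875) and by 13.3-fold in differentiated cells (log2 difference 3.73 ± 0.75, adjusted p = 0.0121). The value in differentiated cells was 2.25 without differentiated replicate 1 and 4.46 without replicate 2. The difference between MOZ-TIF2 and differentiated cells did not pass (log2 difference 1.65 ± 0.65, adjusted p = 0.108). Gclm, the regulatory subunit of the enzyme that joins glutamate to cysteine, stood at 286 and 184 CPM in MOZ-TIF2 cells, 331 and 144 CPM in differentiated cells, and 167 and 187 CPM in fresh cells. Its groups overlapped in every comparison, and neither Gclm (log2 difference 0.41 ± 0.43, adjusted p = 0.518, against fresh cells), nor its partner Gclc, nor glutathione synthetase Gss passed the test anywhere in this set. Gsr, which reduces oxidised glutathione, stood at 1071 and 563 CPM in MOZ-TIF2 cells, 120.3 and 97.5 CPM in differentiated cells, and 278 and 375 CPM in fresh cells. MOZ-TIF2 cells exceeded differentiated cells 7.50-fold (log2 difference 2.91 ± 0.39, adjusted p = 0.00413) and fresh cells by less (log2 difference 1.32 ± 0.37, adjusted p = 0.0487), and differentiated cells fell below fresh cells (log2 difference -1.58 ± 0.37, adjusted p = 0.0196). The call of MOZ-TIF2 against differentiated cells held in 9 of 9 alternatives. That against fresh cells held in 3 of 9: it was lost with RLE scaling, with the replicate block, in a fit of the 2 groups only, without MOZ-TIF2 replicate 1 (log2 0.79, adjusted p = 0.113) and without either fresh library (adjusted p = 0.323 and 0.167). The call of differentiated against fresh cells was lost without any 1 of its 4 libraries (adjusted p = 0.0633 to 0.125).

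In the thioredoxin and glutaredoxin branch, Srxn1 encodes sulfiredoxin, which repairs over-oxidised peroxiredoxins, and it stood at 75.9 and 39.8 CPM in MOZ-TIF2 cells, 139 and 77.3 CPM in differentiated cells, and 7.97 and 6.63 CPM in fresh cells. All 4 cultured libraries were above both fresh ones, with 7.93-fold in MOZ-TIF2 cells (log2 difference 2.99 ± 0.44, adjusted p = 0.00874) and 14.8-fold in differentiated cells (log2 difference 3.89 ± 0.46, adjusted p = 0.00257). Glrx, which removes glutathione from proteins, stood at 89.5 and 259 CPM in MOZ-TIF2 cells, 25.4 and 26.1 CPM in differentiated cells, and 120.2 and 121 CPM in fresh cells. The MOZ-TIF2 libraries lay either side of the fresh ones, while differentiated cells were lower than both, with MOZ-TIF2 above differentiated cells by log2 2.76 ± 0.50 (adjusted p = 0.0105). That value was 1.80 without MOZ-TIF2 replicate 2, and the call was lost without either differentiated library (adjusted p = 0.0608 and 0.0546). Txnrd1, thioredoxin reductase, rose in differentiated over fresh cells (log2 1.68), and Txn1 passed in no comparison of this set.

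Of the NADPH suppliers, Me1 encodes the cytosolic malic enzyme and stood at 17.5 and 6.56 CPM in MOZ-TIF2 cells, 22.6 and 15.9 CPM in differentiated cells, and 0.295 and 0.291 CPM in fresh cells. It was close to 0 in fresh cells and rose in both cultured groups (log2 difference 5.33 ± 0.66, adjusted p = 0.0055 in MOZ-TIF2 and log2 difference 6.02 ± 0.68, adjusted p = 0.00228 in differentiated cells), and the MOZ-TIF2 value was 4.46 without MOZ-TIF2 replicate 1. The pentose phosphate genes Pgd (log2 1.71), Tkt (1.56) and G6pdx (0.92) rose in MOZ-TIF2 over differentiated cells, and Pgd also over fresh cells (1.03). Taldo1, of the same pathway, passed in no comparison of this set. Among peroxidases, Prdx6, which reduces lipid peroxides, stood at 922 and 494 CPM in MOZ-TIF2 cells, 85.8 and 90.6 CPM in differentiated cells, and 323 and 294 CPM in fresh cells. It was highest in MOZ-TIF2 and lowest in differentiated cells, 8.03-fold apart (log2 difference 3.00 ± 0.35, adjusted p = 0.00264), and MOZ-TIF2 exceeded fresh cells by less (log2 difference 1.20 ± 0.33, adjusted p = 0.0472). Prdx5 (log2 2.08) and Gpx1 (1.36) also rose against differentiated cells, while Prdx1 fell (-1.76). Catalase, which splits hydrogen peroxide in peroxisomes, stood at 244 and 171 CPM in MOZ-TIF2 cells, 529 and 297 CPM in differentiated cells, and 139 and 142 CPM in fresh cells. It rose in differentiated over fresh cells (log2 difference 1.56 ± 0.34, adjusted p = 0.0162) and did not pass for MOZ-TIF2 cells against fresh (log2 difference 0.56 ± 0.34, adjusted p = 0.265) or differentiated cells (log2 difference -0.99 ± 0.34, adjusted p = 0.0734). Sod1, the cytosolic superoxide dismutase gene, fell against fresh cells in MOZ-TIF2 (-1.48) and differentiated cells (-1.28), and Gpx4 and Sod2 passed in no comparison of this set.

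Most calls against fresh cells were lost without either fresh library, the shallowest of the set. Most calls over all tested genes were lost there too, so the losses are not particular to these genes. Without fresh replicate 1 a single gene of the 35, Blvrb, passed for MOZ-TIF2 cells, and without fresh replicate 2 there were 2, Blvrb and Hmox1, while for differentiated cells 6 and 7 of the 20 were left. Against differentiated cells 13 to 15 of the 35 passed with any 1 library left out.

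Other genes of the pathway were taken from lists around the 35, and those named are among the 3 of smallest p in their list, with group means given in CPM. The counts are to be read against the shares of all tested genes: 11.3% rose and 12.4% fell in MOZ-TIF2 against fresh cells, 13.3% rose and 16.2% fell against differentiated cells, and 21.0% rose and 19.7% fell in differentiated against fresh cells. Of 31 tested iron and haem genes, 16 fell and 5 rose in MOZ-TIF2 against fresh cells, among them the haem synthesis enzymes Alad (13.2 against 160 CPM, log2 -3.60) and Urod (34.4 against 139.7 CPM, log2 -2.02). In differentiated cells 18 of the 31 fell and 2 rose against fresh cells. Of 19 thioredoxin and peroxidase genes outside the 35, 5 fell and 2 rose in MOZ-TIF2 against fresh cells, among them Prdx2, the peroxiredoxin abundant in red cells (67.1 against 451 CPM, log2 -2.75). Of 31 further glutathione genes 10 rose and 1 fell in MOZ-TIF2 against differentiated cells, led by Mgst2 (75.6 against 3.21 CPM, log2 4.55), and 5 rose and 5 fell against fresh cells. Of 14 NADPH genes 7 rose and none fell against differentiated cells, led by the isocitrate dehydrogenase Idh1 (173 against 68.7 CPM, log2 1.33), and 4 rose and 3 fell against fresh cells. Of 16 regulators 4 rose and 1 fell against fresh cells, and the repressor gene Bach2, which B lymphoid cells express, had the smallest p (0.272 against 18.5 CPM, log2 -6.07), beside B lymphoid markers of 644 to 714 CPM in fresh cells. Against all tested genes, the counts of the glutathione genes and the regulators against fresh cells are not far from the background and are no result about these lists. Of 20 detoxifying genes 5 rose and 6 fell against differentiated cells, with the aldo-keto reductase Akr1c13 at the lowest p (32.4 against 869.7 CPM, log2 -4.74). Of 12 genes of lipid peroxidation 5 fell and 1 rose against differentiated cells, led by the leukotriene-forming Alox5 (48.1 against 2638 CPM, log2 -5.78), an enzyme of mast cells, whose markers summed to 56700 to 86600 CPM there. Of 7 NADPH oxidase genes 2 rose and 1 fell in that comparison, including Ncf1 (556 against 225 CPM, log2 1.30). What part cell identity had in these differences was not tested.

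The second set asked how benzarone acted on the genes in lines with and without EYA1. In EYA1+HOXA9 cells benzarone raised sulfiredoxin, both ferritins, both biliverdin reductases, p62 and Nfe2l2 itself, and lowered the cystine importer. Of the 35 genes 13 rose and 1 fell, where 29.4% of all 13375 tested genes passed, 17.0% higher and 12.4% lower. The median log2 difference was 0.28 over the 35 genes and 0.011 over all tested genes. In HOXA9 cells 0 of the 35 genes passed, and 0 of the 13375 tested genes did (0%), so the share says nothing about these genes in particular. The fit to the same-numbered pairs of HOXA9 libraries is given with that line below.

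The sulfiredoxin, ferritin heavy chain and biliverdin reductase B genes had the largest rises of the 35 in EYA1+HOXA9 cells. Srxn1 stood at 48.2, 43.4 and 42.6 CPM in benzarone, against 25.8, 23.9 and 16.5 CPM in DMSO (log2 difference 1.02 ± 0.17, adjusted p = 0.00119). Fth1 stood at 1266, 1077 and 1018 CPM in benzarone, against 609, 590.0 and 477 CPM in DMSO (log2 difference 1.00 ± 0.18, adjusted p = 0.0015). Blvrb stood at 29.9, 34.2 and 29.7 CPM in benzarone, against 18.1, 16.9 and 14.6 CPM in DMSO (log2 difference 0.92 ± 0.16, adjusted p = 0.0015). Each of the 3 genes had all benzarone libraries above all DMSO libraries. Ftl1 (log2 0.83) and Blvra (0.69) rose too. Hmox1, at the head of haem breakdown, stood at 41.8, 33.0 and 28.3 CPM in benzarone, against 25.4, 20.5 and 16.8 CPM in DMSO. Its groups did not overlap, but the difference did not pass (log2 difference 0.72 ± 0.38, adjusted p = 0.183).

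Nfe2l2 rose by less. It stood at 161, 143 and 179 CPM in benzarone, against 122, 129 and 116 CPM in DMSO, a rise of 1.32-fold (log2 difference 0.40 ± 0.11, adjusted p = 0.02). Keap1 stood at 98.0, 86.0 and 93.6 CPM in benzarone, against 87.2, 70.4 and 66.3 CPM in DMSO, with 1 overlapping library and no call (log2 difference 0.31 ± 0.11, adjusted p = 0.0543). Sqstm1 stood at 523, 336 and 419.6 CPM in benzarone, against 197, 260.5 and 233 CPM in DMSO (log2 difference 0.89 ± 0.23, adjusted p = 0.0113). All 3 benzarone libraries exceeded all DMSO libraries for Nfe2l2 and Sqstm1. The Nfe2l2 call was lost without DMSO replicate 3 (adjusted p = 0.0859), benzarone replicate 1 (0.055) or benzarone replicate 3 (0.0701) in edgeR. That of Sqstm1 was lost without benzarone replicate 1 (adjusted p = 0.0586).

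Slc7a11 was the single gene of the 35 that fell. It stood at 9.25, 7.26 and 11.6 CPM in benzarone, against 11.97, 67.6 and 77.8 CPM in DMSO (log2 difference -2.49 ± 0.56, adjusted p = 0.00567). DMSO replicate 1 lay close to the benzarone libraries and the other two DMSO libraries far above, and the gene passed with each library left out in turn. The other steps of glutathione supply differed from it. Gclm stood at 127, 95.2 and 122 CPM in benzarone, against 107, 96.3 and 92.9 CPM in DMSO, and overlapped (log2 difference 0.22 ± 0.17, adjusted p = 0.371). Gss rose (log2 0.53), and Gclc and Gsr did not pass. Nqo1, low in these lines, stood at 2.93, 2.14 and 2.90 CPM in benzarone, against 3.16, 1.60 and 2.60 CPM in DMSO, with overlap (log2 difference 0.12 ± 0.38, adjusted p = 0.852).

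Of the genes that handle peroxide, catalase stood at 161, 156 and 164 CPM in benzarone, against 125, 94.6 and 86.5 CPM in DMSO, with no overlap (log2 difference 0.65 ± 0.14, adjusted p = 0.00537). Prdx1 (log2 0.85), Txn1 (0.69), Gpx1 (0.48) and Txnrd1 (0.30) also rose. None of the pentose phosphate genes G6pdx, Pgd, Taldo1 and Tkt passed, nor did Me1 or the conjugation genes Gstm1, Gstp1, Mgst1 and Abcc1. Prdx5, Prdx6, Gpx4, Sod1, Sod2 and Glrx did not pass either. Of the genes whose promoters are shown above, Srxn1 and Prdx1 rose, while Me1 and Gstp1 did not pass.

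**Figure D3:**
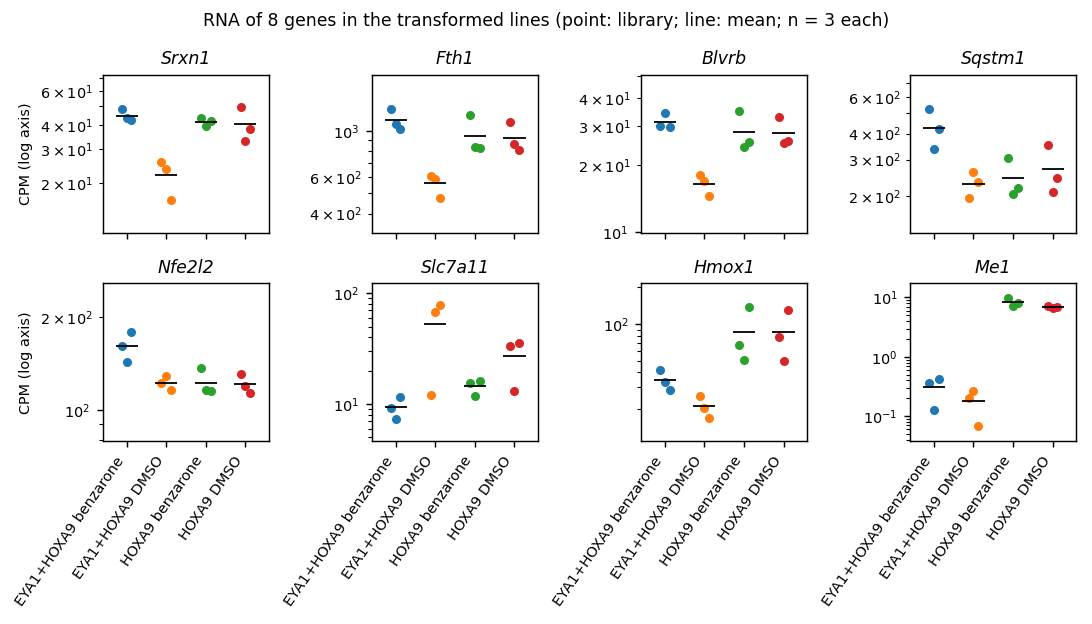
CPM (log axis) of 8 genes in EYA1+HOXA9 and HOXA9 lines kept in benzarone or DMSO; each point is a library and each line a group mean (n = 3). Srxn1, Fth1, Blvrb, Sqstm1 and Nfe2l2 are higher in benzarone than in DMSO in EYA1+HOXA9 cells, Slc7a11 is lower, and Me1 stays under 1 CPM in both treatments of that line.

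Macrophage markers and immediate early genes moved beside these genes in the same libraries. The 13 macrophage markers summed to 1670 to 3530 CPM in benzarone, against 987 to 1120 CPM in DMSO, and each marker had counts in both groups. Immediate early genes summed to 310 to 436 CPM in benzarone, against 197 to 250 CPM in DMSO, and primary granule markers to 5670 to 7870 CPM, against 8350 to 8550 CPM. Of 7 tested primary granule markers 1 rose and 3 fell. Stem and progenitor markers summed to 1740 to 2070 CPM in benzarone, against 970 to 1200 CPM in DMSO, while 2 of 7 tested rose and 3 fell. Their part in the result was not tested. The count of 14 called genes was 8 without benzarone replicate 1, 9 without DMSO replicate 3 and 17 without DMSO replicate 1. Over all tested genes the count of 3933 was 2710, 2353 and 3923 in the same fits. In every alternative run, 8 of the 14 passed: Srxn1, Fth1, Ftl1, Blvra, Blvrb, Prdx1, Cat and Slc7a11. The calls of Gss and Txnrd1 were lost without any 1 library other than DMSO replicate 1. Txn1 lost its call without DMSO replicate 2 or 3 or benzarone replicate 1. Gpx1 lost its call without DMSO replicate 3 or benzarone replicate 1 or 2.

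In HOXA9 cells the same dose and time gave overlapping values in the genes named here. Srxn1 stood at 43.3, 39.6 and 42.2 CPM in benzarone, against 49.4, 33.1 and 38.4 CPM in DMSO. Fth1 stood at 1186, 835 and 825 CPM in benzarone, against 1103, 863 and 807 CPM in DMSO. Hmox1 stood at 66.6, 50.6 and 139 CPM in benzarone, against 77.5, 49.5 and 129 CPM in DMSO. In each gene the libraries of both treatments overlapped. Nfe2l2 stood at 136, 116 and 115 CPM in benzarone, against 130.5, 120.0 and 113 CPM in DMSO. Keap1 stood at 83.3, 82.0 and 81.9 CPM in benzarone, against 86.5, 78.2 and 78.2 CPM in DMSO. Gclm stood at 115, 90.1 and 85.3 CPM in benzarone, against 134, 87.8 and 97.9 CPM in DMSO. These too overlapped between treatments. Catalase stood at 164, 146 and 133 CPM in benzarone, against 167, 149.5 and 133 CPM in DMSO. Nqo1 stood at 4.25, 2.04 and 2.70 CPM in benzarone, against 4.85, 2.07 and 2.48 CPM in DMSO. Slc7a11 stood at 15.5, 11.7 and 16.3 CPM in benzarone, against 33.1, 13.2 and 35.2 CPM in DMSO. Slc7a11 had the largest difference of the 35 in this line, with overlap and no call (log2 difference -0.91 ± 0.53, adjusted p = 1), and was lower in benzarone in each of the 3 same-numbered pairs.

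In the HOXA9 line 1 of the 35 genes had an unadjusted p under 0.05, and DESeq2 called 14 of all tested genes and 0 of the 35. Because same-numbered HOXA9 libraries deviated together, the replicate number was also used as a block, which called 6 genes in the fit over all lines and 0 of the 35. Fits to the HOXA9 libraries alone, chosen after seeing the data, called 20 of 12517 genes with the block and 1 without it, and 0 of the 35 in both. In the fit with the block, Slc7a11 had a log2 difference of -0.83 ± 0.20 (SE, adjusted p = 0.435). Mgst1, higher in benzarone in each pair, had 0.38 ± 0.12 (adjusted p = 0.582). Gstm1, lower in each pair and with no overlap between treatments, had -0.14 ± 0.06 (adjusted p = 0.8), and Ftl1, higher in each pair, had 0.11 ± 0.06 (adjusted p = 0.885). Pgd, higher in each pair, had 0.171 ± 0.064 (adjusted p = 0.724). G6pdx, higher in each pair and also with no overlap between treatments, had 0.105 ± 0.063 (adjusted p = 0.948). Gsr, Gss and Me1 were higher in each pair too, and Sqstm1 was lower in each. A p that misses the threshold does not show that the treatments act alike.

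Whether the lines differed in their response was tested as the interaction of line and benzarone. Srxn1 (log2 0.97, adjusted p = 0.0322), Fth1 (0.97, adjusted p = 0.0354) and Blvrb (0.91, adjusted p = 0.0328) passed, so 3 of the 35 genes did (8.57%), where 7.54% of all tested genes passed, 4.71% higher and 2.83% lower. All 3 rose in EYA1+HOXA9 cells and had values near 0 in HOXA9 cells (0.050, 0.037 and 0.013). For Slc7a11 the fall in EYA1+HOXA9 cells did not differ past the threshold from the value in HOXA9 cells (log2 difference -1.58 ± 0.75, adjusted p = 0.235), and neither did the rises of Nfe2l2 (log2 difference 0.38 ± 0.16, adjusted p = 0.172) and Sqstm1 (log2 difference 1.03 ± 0.32, adjusted p = 0.0681). The count of 3 was 0 without any 1 of EYA1+HOXA9 DMSO replicate 3, EYA1+HOXA9 benzarone replicates 1 and 2, HOXA9 DMSO replicate 1, or HOXA9 benzarone replicates 2 and 3. It was 1 without EYA1+HOXA9 DMSO replicate 2, 7 without HOXA9 benzarone replicate 1 and 8 without EYA1+HOXA9 DMSO replicate 1. Over all tested genes the count of 1009 was 408 to 667 in the fits that called 0 of the 35. It was 870, 1101 and 1182 in those that called 1, 7 and 8.

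The lines also differed in DMSO, where 0 of the 35 genes were higher and 16 were lower in EYA1+HOXA9 than in HOXA9 cells (45.7%), and 22.9% of all tested genes passed, 12.1% higher and 10.8% lower. The median log2 difference was -0.31 over the 35 genes and -0.012 over all tested genes. Cell type markers differed between the lines too. Primary granule markers summed to 8350 to 8550 CPM in EYA1+HOXA9 cells, against 14400 to 16700 CPM in HOXA9 cells. Secondary granule markers summed to 379 to 504 CPM, against 938 to 2990 CPM. Stem and progenitor markers were higher, at 970 to 1200 CPM, against 707 to 793 CPM. What part these had in the falls was not tested. The EYA1+HOXA9 DMSO libraries used here are also the reference for benzarone in that line, and they enter the interaction. The falls here, the rises with benzarone and the interaction calls are therefore not separate findings. Hmox1 stood at 25.4, 20.5 and 16.8 CPM in EYA1+HOXA9 cells, against 77.5, 49.5 and 129 CPM in HOXA9 cells (log2 difference -2.03 ± 0.39, adjusted p = 0.00302), a 4.09-fold fall with no overlap. Srxn1 stood at 25.8, 23.9 and 16.5 CPM in EYA1+HOXA9 cells, against 49.4, 33.1 and 38.4 CPM in HOXA9 cells (log2 difference -0.87 ± 0.17, adjusted p = 0.00372). Ftl1 stood at 2239.9, 1953 and 1651 CPM in EYA1+HOXA9 cells, against 3874, 3479 and 3077 CPM in HOXA9 cells (log2 difference -0.84 ± 0.15, adjusted p = 0.00228). The haem and iron genes Blvrb (-0.75), Fth1 (-0.73) and Blvra (-0.47) fell with them. Catalase (-0.55), Prdx1 (-0.63), Prdx6 (-0.41), Gpx1 (-0.48), Sod2 (-0.41), Pgd (-0.59), Tkt (-0.49), Gstp1 (-0.41) and Gstm1 (-0.27) fell too.

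Me1 differed most between the lines. It stood at 0.202, 0.266 and 0.0676 CPM in EYA1+HOXA9 cells, against 7.19, 6.56 and 6.97 CPM in HOXA9 cells in DMSO (log2 difference -5.22 ± 0.41, adjusted p = 3.96e-06), and at 0.359, 0.126 and 0.429 CPM, against 9.64, 7.14 and 7.99 CPM in benzarone (log2 difference -4.75 ± 0.39, adjusted p = 4.51e-06). No library of 1 line came near the other. Me1 lies below the level of 10 CPM set for naming and was singled out after its values were seen. The sensors did not pass in DMSO: Nfe2l2 (0.012), Keap1 (-0.12) and Sqstm1 (-0.23) had adjusted p of 0.944, 0.459 and 0.48. Nor did Slc7a11 (0.95, adjusted p = 0.205), Gclm (-0.11, adjusted p = 0.657) or Nqo1 (-0.35, adjusted p = 0.514). The count of 16 fell to 5 without EYA1+HOXA9 DMSO replicate 3, 6 without EYA1+HOXA9 DMSO replicate 2, 6 without HOXA9 DMSO replicate 1 and 7 without HOXA9 DMSO replicate 2. Over all tested genes the count of 3061 fell to 1735, 1997, 2000 and 1857 in the same fits. In every alternative run, 5 passed: Hmox1, Me1, Srxn1, Blvrb and Ftl1.

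In benzarone 2 of the 35 genes were higher and 7 lower in EYA1+HOXA9 than in HOXA9 cells (25.7%), where 25.3% of all tested genes passed, 15.2% higher and 10.1% lower. The higher ones were Sqstm1, at 523, 336 and 419.6 CPM in EYA1+HOXA9 cells, against 307, 206 and 218 CPM in HOXA9 cells (log2 difference 0.81 ± 0.23, adjusted p = 0.0201), and Nfe2l2 (log2 difference 0.40 ± 0.11, adjusted p = 0.0227). Hmox1 stood at 41.8, 33.0 and 28.3 CPM in EYA1+HOXA9 cells, against 66.6, 50.6 and 139 CPM in HOXA9 cells (log2 difference -1.31 ± 0.38, adjusted p = 0.0244), and lost its call without HOXA9 benzarone replicate 3 (-0.77) and without EYA1+HOXA9 benzarone replicate 2 or 3. Pgd stood at 822, 905 and 852 CPM in EYA1+HOXA9 cells, against 1655, 1524 and 1312 CPM in HOXA9 cells (log2 difference -0.80 ± 0.15, adjusted p = 0.00167). Prdx5 stood at 310.0, 325 and 299.8 CPM in EYA1+HOXA9 cells, against 570.3, 411 and 467 CPM in HOXA9 cells (log2 difference -0.63 ± 0.14, adjusted p = 0.00466). Me1, Prdx6 (-0.57), Glrx (-0.55) and Tkt (-0.51) were the other lower genes. Srxn1, Fth1, Ftl1 and Blvrb, which were lower in EYA1+HOXA9 cells in DMSO, did not pass here (0.10, 0.24, -0.14 and 0.15). The calls of Sqstm1 and Nfe2l2 were lost without EYA1+HOXA9 benzarone replicate 1 and without HOXA9 benzarone replicate 2 or 3, and that of Nfe2l2 also without EYA1+HOXA9 benzarone replicate 3. Primary granule markers summed to 5670 to 7870 CPM in EYA1+HOXA9 cells, against 13000 to 14900 CPM in HOXA9 cells. Secondary granule markers summed to 173 to 397 CPM, against 1090 to 3640 CPM. Macrophage markers were higher (1670 to 3530 CPM, against 770 to 1240 CPM), as were stem and progenitor markers (1740 to 2070 CPM, against 683 to 730 CPM). Their part in these differences was not tested.

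Of the wider lists, set against 17.0% of all tested genes that rose and 12.4% that fell, 9 of 30 further glutathione genes rose and 5 fell in EYA1+HOXA9 cells with benzarone, led by Gstk1 (4.27 against 1.18 CPM, log2 1.85) and Gpx8 (90.2 against 13.6 CPM, log2 2.72). Of 28 iron and haem genes 9 rose and 4 fell, and of 20 detoxifying genes 9 rose and 2 fell, among them Cyb5r3 (81.5 against 44.9 CPM, log2 0.86) and Ugdh (305 against 127 CPM, log2 1.27) among the rises and Ces1d (7.49 against 31.6 CPM, log2 -2.08) among the falls. Of 14 NADPH genes 1 rose and 5 fell, led by the mitochondrial malic enzyme Me2 (85.3 against 177 CPM, log2 -1.05), Rpe (85.4 against 123 CPM, log2 -0.53) and Mthfd2 (63.0 against 161 CPM, log2 -1.35). Of 6 genes of the phagocyte NADPH oxidase, which makes superoxide, 4 rose and none fell, led by Cybb (304 against 69.9 CPM, log2 2.12). Of 15 regulators 2 rose and 2 fell: the NRF2 targets Osgin1 (28.03 against 9.14 CPM, log2 1.62) and Pir (8.68 against 3.70 CPM, log2 1.23) rose, and the NF-E2 subunit Nfe2 (168 against 267 CPM, log2 -0.67) fell. Of 18 thioredoxin and peroxidase genes 4 rose and 1 fell, and of 10 genes of lipid peroxidation 3 rose and 2 fell, the smallest p being that of Gch1 (10.3 against 2.84 CPM, log2 1.85). The counts of the regulators and of the thioredoxin genes are close to the shares of all genes and are no result about those lists. In HOXA9 cells none of the genes on these lists passed.

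The single cells followed benzarone over 5 days in MOZ-TIF2 cells, with 826 cells on day 1, 829 on day 3 and 1496 on day 5, against 883 cells in DMSO on day 1 and 1662 on day 5. Median unique molecular identifiers (UMIs) per cell were 44761.5, 44743 and 19763 in benzarone, against 42565 and 24575.5 in DMSO. UMIs were summed over the cells of a condition and scaled to CPM of the listed genes. The 95% intervals cover counting error only. With 1 sample per condition there is no test across samples, and a gene is counted as different where the ratio passed 1.5-fold with at least 20 UMIs. Nqo1 is not among the genes listed for days 1 and 3, which leaves 34. Of the cell barcodes, 9 occur in both tables and 3 in more than 1 condition of days 1 and 3.

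The genes took up 2.50% of all UMIs on day 1, 3.56% on day 3 and 7.83% on day 5 in benzarone, against 2.35% and 2.13% in DMSO on days 1 and 5, with 34 genes listed on days 1 and 3 and 35 on day 5. Most of this was ferritin: Fth1 and Ftl1 made up 1.62%, 2.62% and 6.60% in benzarone, against 1.55% and 1.32% in DMSO. All other genes of the set held 0.882%, 0.947% and 1.23% in benzarone, against 0.802% and 0.816% in DMSO. On day 1, 0 of 34 genes passed 1.5-fold against DMSO, where 1.80% of all listed genes did, 0.879% higher. The largest ratio was that of Mgst1 (ratio 1.33, 95% interval 1.27 to 1.39), and Hmox1 (ratio 1.18, 95% interval 1.08 to 1.29) and Fth1 (ratio 1.04, 95% interval 1.03 to 1.04) were close to their DMSO values. On day 3, 5 of 34 genes were higher than on day 1 in benzarone and 0 lower (14.7%), where 5.77% of all listed genes passed 1.5-fold, 4.99% higher and 0.783% lower. They were Hmox1, Gstp1, Fth1, Blvrb and Ftl1.

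Hmox1, Blvrb and Fth1, 3 of the 5 genes higher on day 3, are given by day. Hmox1 stood at 27.2 CPM on day 1, 81.6 on day 3 and 478 on day 5 in benzarone, against 23.0 and 30.6 CPM in DMSO on days 1 and 5. Blvrb stood at 29.0, 49.7 and 191 CPM in benzarone on these days, against 29.1 and 20.2 CPM in DMSO. Fth1 stood at 3797, 6653 and 29020 CPM in benzarone, against 3663 and 3689 CPM in DMSO. In each of these genes day 3 lay between days 1 and 5, and both DMSO levels lay below the day 3 level in benzarone. Day 3 has no DMSO sample. On day 5 the ratio to DMSO was 15.6 for Hmox1, 9.43 for Blvrb, 7.87 for Fth1 and 3.91 for Ftl1. Gstp1 stood at 4.76, 8.41 and 13.75 CPM in benzarone on days 1, 3 and 5, against 3.79 and 18.4 CPM in DMSO on days 1 and 5. Its ratio of day 3 to day 1 in benzarone was 1.77 (95% interval 1.47 to 2.14). Its ratio to DMSO on day 5 was 0.747 (95% interval 0.663 to 0.841), beside a DMSO level above that of day 1.

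**Figure D4:**
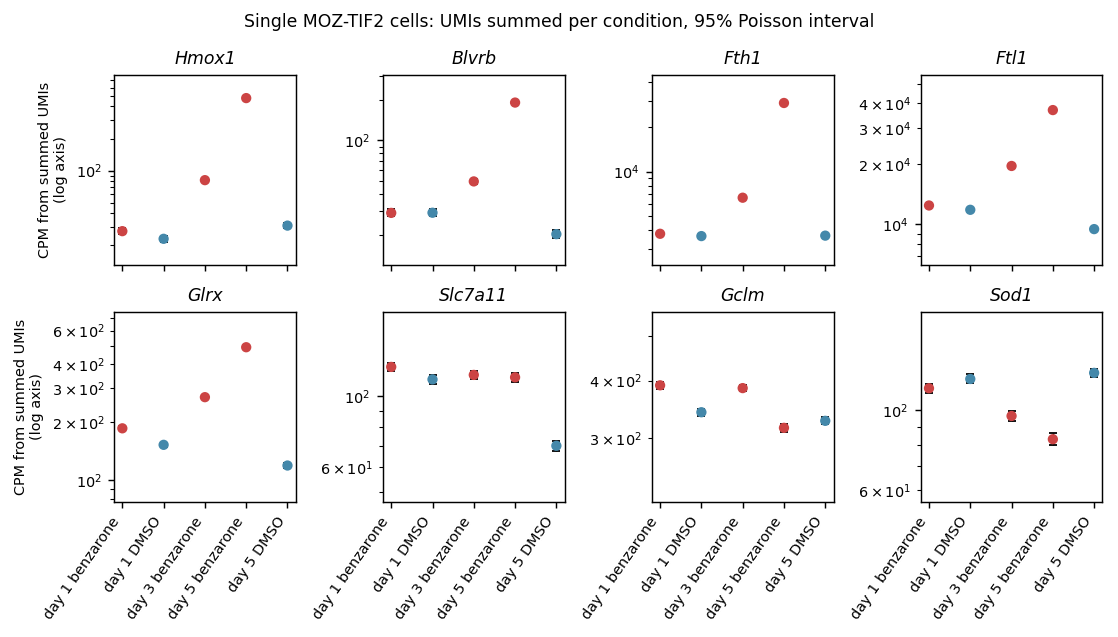
CPM from summed UMIs (log axis) of 8 genes in single MOZ-TIF2 cells by day and treatment, red for benzarone and blue for DMSO, with 95% Poisson intervals that are often smaller than the points. Hmox1, Blvrb, Fth1, Ftl1 and Glrx climb over the days in benzarone, while Slc7a11 and Gclm do not, and Sod1 is lowest on day 5 in benzarone.

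On day 5, 16 of the 35 genes were higher and 2 lower than in DMSO (51.4%), where 53.7% of all listed genes passed 1.5-fold, 25.2% higher and 28.5% lower. The share is close to that of all genes, while the split by direction is not. The median log2 ratio was 0.54 over the 35 genes and -0.11 over all listed genes. With ribosomal and mitochondrial genes left out of the totals the split was 12 higher and 4 lower, with a median of -0.32 over all genes, and without the 50 largest genes it was 20 and 0, with a median of -0.015. Beside the haem and iron genes, Glrx stood at 492 CPM in benzarone, against 119 CPM in DMSO (ratio 4.14, 95% interval 4.01 to 4.27). Mgst1 (3.20), Srxn1 (2.97), Nqo1 (2.86), Prdx5 (2.77), Me1 (2.71) and Sqstm1 (2.17) had ratios above 2. Gpx4 (1.95), Pgd (1.71), Blvra (1.69), Slc7a11 (1.64) and Prdx1 (1.60) were nearer the threshold. With ribosomal and mitochondrial genes left out of the totals, Pgd, Blvra, Slc7a11 and Prdx1 were inside 1.5-fold.

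The lower genes on day 5 were Tkt, at 308 CPM in benzarone, against 489 CPM in DMSO (ratio 0.629, 95% interval 0.614 to 0.645), and Sod1, at 83.1 CPM, against 127 CPM (ratio 0.656, 95% interval 0.626 to 0.687). Without the 50 largest genes both were inside 1.5-fold (log2 -0.57 and -0.51). Nfe2l2 stood at 70.8 CPM in benzarone, against 48.6 CPM in DMSO (ratio 1.46, 95% interval 1.37 to 1.55), just inside 1.5-fold, and was past it without the 50 largest genes (log2 0.64). Keap1 stood at 30.7 CPM in benzarone, against 29.0 CPM in DMSO. Glutathione supply was flat at Gclm, with 316 CPM in benzarone, against 327 CPM in DMSO, and at Gss (0.997). Gclc was lower but inside 1.5-fold (ratio 0.711, 95% interval 0.616 to 0.82). With ribosomal and mitochondrial genes left out of the totals, Gclc was past 1.5-fold lower (log2 -0.70). Gsr had a ratio of 1.26 (95% interval 1.23 to 1.29). Slc7a11 stood at 123, 116 and 114 CPM in benzarone on days 1, 3 and 5, against 113 and 69.9 CPM in DMSO on days 1 and 5. Days 1 and 5 differ in the genes listed and in UMIs per cell, and no condition was repeated. These levels therefore cannot tell which treatment moved between the days. Catalase stood at 58.9 CPM in benzarone, against 40.7 CPM in DMSO on day 5, and at 46.0 CPM, against 45.5 CPM on day 1.

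Cells differed widely within the day 5 sample. Fth1 per cell ran from 1789 CPM at the 5th percentile over a median of 24410 to 69510 CPM at the 95th in benzarone, against 1420, 3034 and 6883 CPM in DMSO. Hmox1 had a median of 177 CPM and a 95th percentile of 1605 CPM in benzarone, against 0 and 113 CPM in DMSO. Slc7a11 had medians of 30.3 CPM in benzarone and 33.8 CPM in DMSO, and 95th percentiles of 503 and 283 CPM. The benzarone cells at the low end of Fth1 thus lay within the range of the DMSO cells, and the summed Slc7a11 difference lay in the upper tail of the cells.

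**Figure D5:**
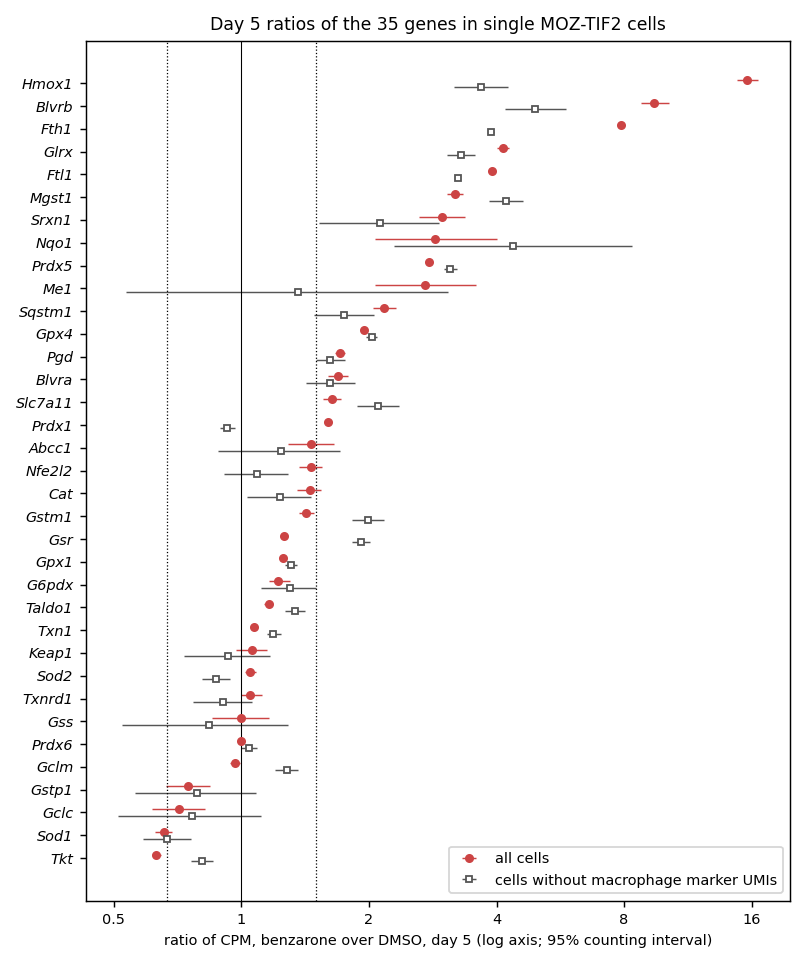
Ratio of CPM in benzarone over DMSO on day 5 (log axis) for each of the 35 genes, with 95% counting intervals; red points use all cells, open squares the cells without a UMI of 6 macrophage markers, and dotted lines mark 1.5-fold either way. Hmox1 lies at 15.6 in all cells and at 3.68 in the marker-free cells, and Prdx1 lies on opposite sides of 1 in the 2 sets.

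Macrophage markers moved with these genes. All 13 were past 1.5-fold higher on day 5, with a summed level of 21200 CPM in benzarone, against 1110 CPM in DMSO, and the sum was 1060 CPM on day 1 and 3470 CPM on day 3 in benzarone. Other markers moved too: secondary granule genes were higher in 11 of 11 (sum of 21600 CPM in benzarone, against 10400 CPM in DMSO), immediate early genes in 8 of 10 (886 CPM, against 461 CPM), and primary granule genes were lower in 5 of 7 (1790 CPM, against 10700 CPM). Of 8 stem and progenitor markers 7 were lower and 1 higher, while their sum was 529 CPM in benzarone, against 358 CPM in DMSO. What part these had in the result was not tested. Lyz2 stood at 18870 CPM, against 983 CPM, and Arg1 at 1276 CPM, against 21.2 CPM. Mpo, a primary granule gene, stood at 88.0 CPM in benzarone, against 1890 CPM in DMSO. As a check chosen after the data were seen, the ratios were taken again in cells without a UMI of Arg1, C1qa, C1qb, C1qc, Mrc1 or Adgre1, which were 201 of 1496 benzarone cells (13.4%) and 639 of 1662 DMSO cells (38.4%). In these cells 16 of the 35 genes were higher and 0 lower, where 47.6% of all listed genes passed 1.5-fold, 18.3% higher and 29.3% lower. Their median UMIs per cell were 14602 in benzarone and 22862 in DMSO, both below the medians of all day 5 cells. Fth1 had a ratio of 3.89 there, Blvrb 4.94, Mgst1 4.21, Ftl1 3.24, Hmox1 3.68 and Glrx 3.29, while Prdx1 was at 0.926. The marker-free benzarone cells still held Lyz2 at 13160 CPM, against 1001 CPM in DMSO, and Mpo at 263.5 CPM, against 2002 CPM, so they differed in these markers too.

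Of the wider lists on day 5, set against 25.2% of all listed genes higher and 28.5% lower, 11 of 18 detoxifying genes were higher and 0 lower than in DMSO, and 8 of 15 regulators were higher and 1 lower. Of 13 NADPH genes 1 was higher and 8 were lower, of 27 iron and haem genes 9 were higher and 8 lower, of 27 further glutathione genes 9 were higher and 6 lower, and of 15 thioredoxin and peroxidase genes 2 were higher and 5 lower. Lipid peroxidation genes stood at 5 higher and 2 lower of 10, and NADPH oxidase genes at 3 higher and 0 lower of 6. The counts of the iron, glutathione and thioredoxin lists are not far from the shares of all genes.

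Set side by side, the bulk EYA1+HOXA9 line at 72 h and the single MOZ-TIF2 cells at day 5 are different cells, times and assays, and no test joins them. Of the 13 genes called higher in the bulk line, 7 were past 1.5-fold higher in the single cells (53.8%): Srxn1, Fth1, Ftl1, Blvra, Blvrb, Sqstm1 and Prdx1. Of all 1855 genes called higher in the bulk line and with at least 20 UMIs on day 5, 51.2% were past 1.5-fold higher, so the share is not particular to these genes. The other 6 had ratios of 1.46 (Nfe2l2), 1.45 (Cat), 1.25 (Gpx1), 1.07 (Txn1), 1.05 (Txnrd1) and 0.997 (Gss). Prdx1 was at 0.926 in the marker-free cells. Slc7a11 was called lower in the bulk line and stood past 1.5-fold higher in the single cells. With ribosomal and mitochondrial genes left out of the single-cell totals, Slc7a11 (log2 0.50), Blvra (0.55) and Prdx1 (0.47) were inside 1.5-fold.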

How the data were processed

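Bulk expected counts per gene were deposited by the authors in 2 tables (23.8% and 23.3% of values fractional), and single-cell UMI counts were deposited in tables with 1 row or column per cell. The submitters' processing notes name Salmon 0.13.0, Cell Ranger 3.0.0 and Bowtie2. Peak intervals on GRCm38 were deposited without scores.

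Expected counts were rounded, filtered with filterByExpr, scaled by TMM and tested by edgeR 4.0.16 quasi-likelihood fits over all groups of a table, with Benjamini-Hochberg adjustment over all tested genes and a threshold of 0.05. Alternatives were DESeq2 1.42.0, RLE scaling, no filter, a replicate block, the 2 groups alone and each library left out. Single-cell UMIs were summed per condition, with exact Poisson and conditional binomial 95% intervals, which cover counting error only. No doublet caller was run and no cells were clustered. The scripts were tested on simulated data. With 200 genes changed 4-fold, 55% were recovered for MOZ-TIF2 against fresh cells, with 13 false calls. For benzarone in EYA1+HOXA9 cells 99.5% were recovered, with 10 false calls. In the c-Kit+ set, a gene that did not pass is therefore not shown to be unchanged. Acetyl-histone and input samples were not analysed here, and some genes of the lists are not reported here.

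The members and lists were chosen with earlier results of these data known. Genes were named by rule: Nfe2l2, Keap1, Hmox1, Nqo1, Slc7a11, Gclm, Fth1 and Cat always, and the members of at least 10 CPM with the largest called changes in each comparison. Others are given by role. Same-numbered HOXA9 libraries in benzarone and DMSO deviated together, with correlations of 0.279 to 0.55 over 3 pairs, so the blocked counts stand beside that result. In the other comparisons the numbers were not taken to pair libraries.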

Additional observations from a re-analysis of the deposited data

Results flagged for a closer look

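Results were singled out where the log2 effect of benzarone differed between EYA1+HOXA9 and HOXA9 cells by the interaction test in edgeR (adjusted over all tested genes, n = 3 libraries per group). Over all tested genes 7.54% passed that test. The genes named here from the wider lists were among the 3 of smallest p in their list. That p came from benzarone in EYA1+HOXA9 cells or from the interaction itself. Their passing is thus in part how they were chosen and is no result about the lists. Among the 35 genes these were Srxn1 (1.02 in EYA1+HOXA9 and 0.05 in HOXA9 cells, difference 0.97, adjusted p = 0.0322), Fth1 (1.00 in EYA1+HOXA9 and 0.037 in HOXA9 cells, difference 0.97, adjusted p = 0.0354) and Blvrb (0.92 in EYA1+HOXA9 and 0.013 in HOXA9 cells, difference 0.91, adjusted p = 0.0328). Of the genes named from the wider lists, those with a larger rise in EYA1+HOXA9 cells were Ggt5 (3.20 in EYA1+HOXA9 and 0.075 in HOXA9 cells, difference 3.13, adjusted p = 0.0181), Gstk1 (1.85 in EYA1+HOXA9 and 0.19 in HOXA9 cells, difference 1.66, adjusted p = 0.0135) and Gch1 (1.85 in EYA1+HOXA9 and 0.28 in HOXA9 cells, difference 1.56, adjusted p = 0.00893). The same held for Cybb (2.12 in EYA1+HOXA9 and 0.63 in HOXA9 cells, difference 1.49, adjusted p = 0.0417), Ugdh (1.27 in EYA1+HOXA9 and -0.043 in HOXA9 cells, difference 1.31, adjusted p = 0.013) and Cyb5r3 (0.86 in EYA1+HOXA9 and -0.005 in HOXA9 cells, difference 0.86, adjusted p = 0.00947). So too for the glutathione transferase genes Gstm5 (2.38 in EYA1+HOXA9 and -0.24 in HOXA9 cells, difference 2.62, adjusted p = 0.016) and Gstm2 (0.90 in EYA1+HOXA9 and -0.12 in HOXA9 cells, difference 1.02, adjusted p = 0.013), whose values are uncertain because near-identical copies may share reads. The difference was negative for the iron exporter gene Slc40a1 (-1.72 in EYA1+HOXA9 and 0.35 in HOXA9 cells, difference -2.07, adjusted p = 0.00834), the mitochondrial iron importer gene Slc25a37 (-1.16 in EYA1+HOXA9 and -0.13 in HOXA9 cells, difference -1.03, adjusted p = 0.0417) and Ces1d (-2.08 in EYA1+HOXA9 and 0.30 in HOXA9 cells, difference -2.37, adjusted p = 0.00615). It was also negative for Uros (-0.63 in EYA1+HOXA9 and 0.37 in HOXA9 cells, difference -0.997, adjusted p = 0.0292), Me2 (-1.05 in EYA1+HOXA9 and -0.14 in HOXA9 cells, difference -0.91, adjusted p = 0.0282), Rpe (-0.53 in EYA1+HOXA9 and 0.15 in HOXA9 cells, difference -0.68, adjusted p = 0.0138) and Nfe2 (-0.67 in EYA1+HOXA9 and 0.018 in HOXA9 cells, difference -0.69, adjusted p = 0.0343). Of 16 alternatives, each library left out in turn among them, the interaction call was kept in 16 for Gstm5, Gstm2, Gstk1, Gch1, Ugdh, Cyb5r3, Slc40a1, Ces1d and Rpe. It was kept in 10 for Srxn1 and Uros, 9 for Blvrb and Me2, 8 for Fth1 and Nfe2, and 7 for Cybb and Slc25a37. The alternatives for Ggt5 are not given here. Macrophage markers moved in the same EYA1+HOXA9 libraries, summing to 1670 to 3530 CPM in benzarone, against 987 to 1120 CPM in DMSO, and their part in these differences was not tested. No group held 4 or more samples, so single libraries were not screened as outliers.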

How the results depend on the processing

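Of the alternative values for the counts over the 35 genes (called genes, promoter matches and peaks), 77 lay within 1.5 times the main count and 24 did not. With 1 library left out, MOZ-TIF2 against fresh cells gave 1 to 13 calls, differentiated against fresh cells 6 to 17, benzarone in EYA1+HOXA9 cells 8 to 17, EYA1+HOXA9 against HOXA9 cells in DMSO 5 to 18, and the interaction 0 to 8. Over all tested genes the lowest counts were 374, 1259, 2353, 1735 and 408 in the same comparisons, against 3602, 6198, 3933, 3061 and 1009 with all libraries. The interaction gave 7 calls with DESeq2. With the replicate block, MOZ-TIF2 against fresh cells gave 9 calls and the interaction 6; the numbers do not pair the c-Kit+ libraries (same-numbered correlations of -0.076 to -0.008) or the EYA1+HOXA9 ones (-0.065 to 0.008), and the block moved no other count of the 35 by over 1.5 times. DESeq2 called 1702 of all genes in the interaction, against 1009. The promoter count of 11 was 3 with the same motif followed by an A and 4 with TGANTCAGC. In single cells on day 5, Prdx1 had a log2 ratio of -0.11 in cells without macrophage marker UMIs, the opposite direction to all cells; these cells are fewer and differ in other markers, and the cause was not tested. For single genes, 2134 alternative values kept direction and side of the threshold, 374 lost the call and 9 moved. Precision is limited by 2 libraries per c-Kit+ group, by the lower totals of the fresh libraries and, in single cells, by 1 sample per condition.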
